A study of Solanum lycopersicum with 12 samples.

Results

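Tomato CBF1, CBF2 and CBF3 (Solyc03g026280, Solyc03g124110 and Solyc03g026270) were followed in whole wild-type seedlings of Solanum lycopersicum given a hormone or a synthetic compound for 3 h. They were chosen by ID, and all 3 were found among the 34075 gene IDs of the count table. Their symbols come from the rule that selected them; the RefSeq gene table of assembly SLM_r2.1 holds 1 of these symbols, CBF1, and pairs none of its entries with an ID of this kind. The treated groups received 10 µM abscisic acid (ABA), the plant hormone of water shortage, or the synthetic iSB09 at 20 µM, studied here for ABA-like gene activation, and the mock group received 0.1% DMSO. All seedlings shared the wild-type genotype, 8 days in liquid medium and growth at 22 °C, and the sample records used here list no cold treatment. The sample records also give 3 days after germination and a cycle of 16 h light and 8 h dark for every group. The ABA, iSB09 and mock groups had 3 libraries each. Samples given 10 µM iCB are labelled in the series but were not analysed here, because no column of the table could be matched to them. Solvent is recorded for the mock group alone, so a difference in solvent cannot be told apart from treatment.

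CBF proteins are transcription factors of the AP2/ERF class. They bind the C-repeat, or dehydration-responsive, element in front of genes for proteins that protect cells during cold and drying. In Arabidopsis the CBF genes are switched on rapidly by chilling through ICE1-type and CAMTA factors, and the circadian clock sets how strongly they respond. ABA acts largely through a separate route, in which bZIP factors bind a different element, although the same protective genes can answer to both.

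The 9 libraries held 21863058 to 22098966 counts each, so that 1 read corresponded to 0.0433 to 0.0480 CPM (reads scaled by each library's total and TMM factor). On principal components of log2 CPM the first axis, with 58.29% of the variance, separated the 3 groups. It ran from -55.7 to -50.7 in ABA, -8.5 to 6 in iSB09 and 48.7 to 61.3 in mock libraries. The second axis, with 11.97% of the variance, placed iSB09 replicate 2 at -45.5, mock replicate 1 at -20.4 and mock replicate 3 at 31.2. The other 6 libraries lay between 4.3 and 9.8 on it. Listed shoot markers summed to 20050 to 27240 CPM in ABA, 20350 to 27260 in iSB09 and 19220 to 26110 in mock libraries, with none of the 6 at 0. Listed root markers summed to 44.7 to 57.5 CPM in ABA, 53.3 to 64.7 in iSB09 and 73.4 to 101.7 in mock libraries, with none of the 4 at 0 over all libraries; their part in the results below was not tested. In whole seedlings, fewer cells of a type and less RNA per cell cannot be told apart. Nothing states what separated the replicates beyond their being independent biological ones. The p-values below set differences between groups against the spread between these samples.

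The CBF genes were barely detected under any treatment. Together they received 60 of 197624033 counts, and none passed the low-count filter that kept 21424 IDs for testing, so 0 of the 3 members were tested in the filtered fit. The filter, edgeR's filterByExpr, asks for the equivalent of about 10 reads in at least 3 libraries. CBF1 had 10 reads or more in 2 libraries, and CBF2 and CBF3 in 0.

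CBF1, which is cold-induced in tomato, was the one CBF gene with reads in all 9 libraries. It had 5, 1 and 7 reads in ABA replicates 1 to 3, 3, 12 and 2 reads in iSB09 replicates 1 to 3, and 8, 6 and 11 reads in mock replicates 1 to 3. ABA replicate 2 was lowest and iSB09 replicate 2 highest, and the libraries of each pair of groups overlapped. The 95% counting interval (exact Poisson) of the 12 reads in iSB09 replicate 2 ran from 6.20 to 20.96 reads. That of the 2 reads in iSB09 replicate 3 ran from 0.24 to 7.22. An overlap of such intervals does not show that 2 libraries differ by counting error alone. Whether the CBF1 reads of the iSB09 replicates differed by more than that was not tested.

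On the CPM scale CBF1 averaged 0.201 ± 0.145 in ABA, 0.265 ± 0.270 in iSB09 and 0.373 ± 0.0982 in mock libraries (SD, n = 3 each). The group sums were 13 reads after ABA, 17 after iSB09 and 25 after mock. Pooled over libraries these gave 0.200 CPM in ABA (95% counting interval 0.107 to 0.342), 0.257 CPM in iSB09 (0.1495 to 0.411) and 0.376 CPM in mock (0.243 to 0.555). The interval of each group overlapped those of the others. Intervals and floors here cover counting error only.

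**Figure D1:**
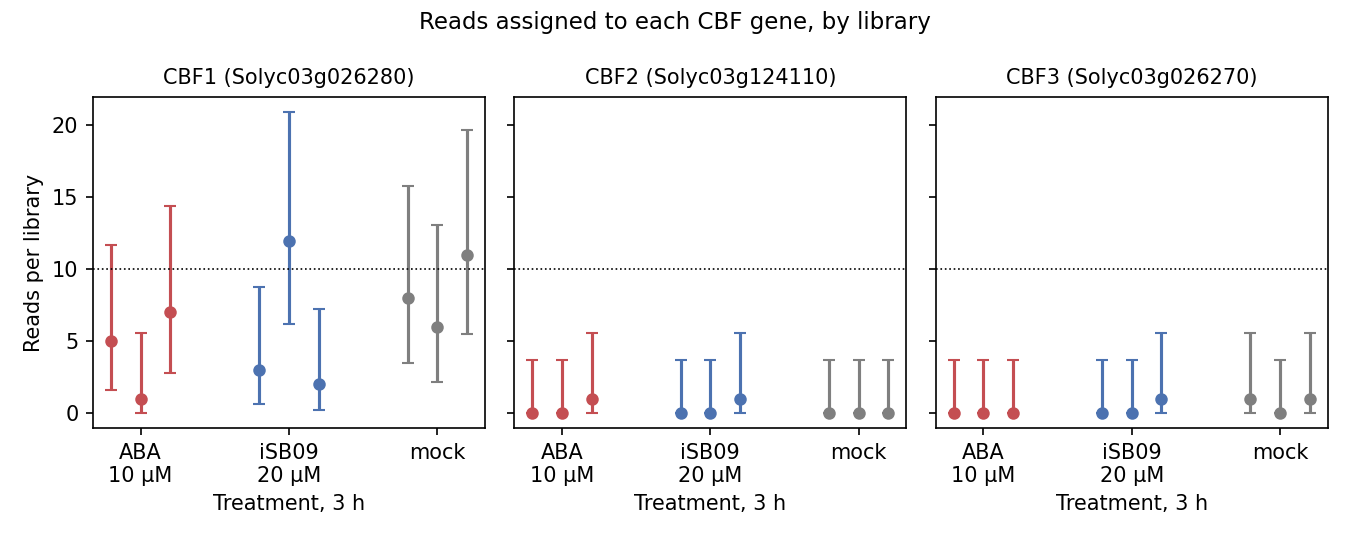
Reads per library (y axis) of CBF1, CBF2 and CBF3 after ABA, iSB09 or mock treatment (x axis); each point is 1 library, bars are exact 95% Poisson intervals and the dotted line marks 10 reads. CBF1 lies between 1 and 12 reads with overlapping groups, and CBF2 and CBF3 have 0 or 1 read in every library.

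CBF2 had 0, 0 and 1 read in ABA replicates 1 to 3, 0, 0 and 1 in iSB09 replicates 1 to 3, and 0 in each mock library. Its 2 reads thus came from 1 ABA and 1 iSB09 library. Its exact Poisson 95% intervals reached up to 0.0858 CPM in ABA, 0.0841 CPM in iSB09 and 0.0555 CPM in mock. For mock, 3 counts over the group, the floor used for a count of 0, correspond to 0.0451 CPM.

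CBF3, whose ID directly precedes that of CBF1, had 0 reads in each ABA library, 0, 0 and 1 in iSB09 replicates 1 to 3, and 1, 0 and 1 in mock replicates 1 to 3. Its 95% intervals reached up to 0.0568 CPM in ABA, 0.0841 CPM in iSB09 and 0.109 CPM in mock. The floor of 3 counts corresponds to 0.0462 CPM in ABA. CBF2 and CBF3 were at or under the floor of 3 counts in every group, so no fold change is given for them, and a difference between treatments was not detectable at this depth.

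Of the 26672 IDs with at least 1 read, 4831 (18.1%) had a lower CPM than CBF1 over all libraries, 1444 (5.41%) a lower one than CBF3, and 990 (3.71%) a lower one than CBF2. This order is one of reads, not of transcript level, since CPM is not corrected for gene length and no lengths were used. Another 7403 IDs had no read.

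**Figure D2:**
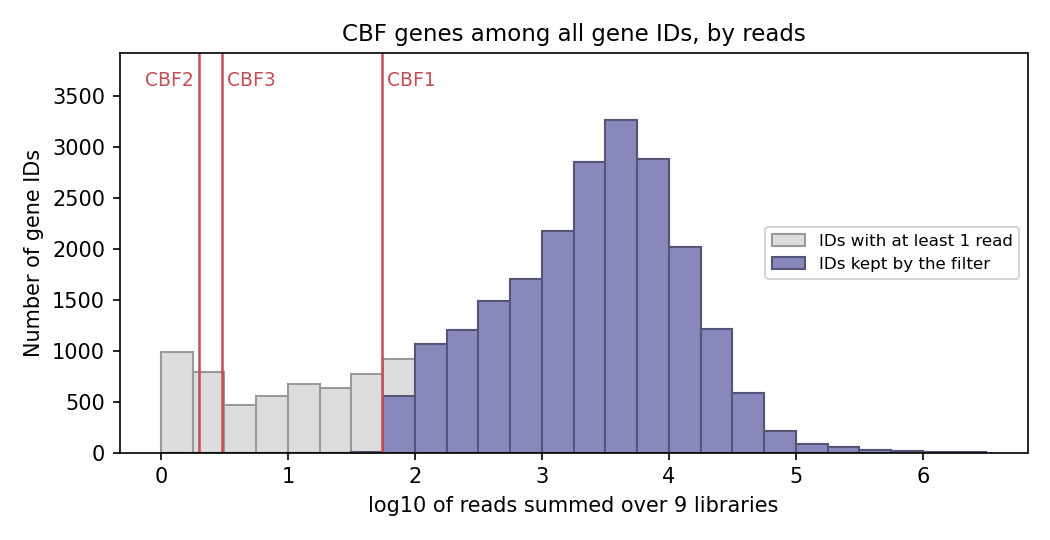
Number of gene IDs (y axis) by the log10 of their reads summed over 9 libraries (x axis); grey bars are all 26672 IDs with a read, blue bars the 21424 kept by the filter, and red lines mark the CBF genes. CBF1, with 55 reads, stands at the edge of the tested range, and CBF3, with 3 reads, and CBF2, with 2, lie far below it.

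The first comparison asks whether ABA changed the CBF genes. CBF1 read CPM after ABA was 0.532 times that in mock (95% counting interval 0.25 to 1.08), a log2 ratio of -0.91. The exact two-sided permutation test of the CPM, with 3 libraries against 3, gave p = 0.2 (0.6 adjusted over the 3 comparisons), where 0.1 is the smallest p possible. With the filter removed, edgeR's quasi-likelihood test gave a log2 fold change of -0.89 ± 0.70 (SE, 95% interval -2.40 to 0.63; Benjamini-Hochberg adjusted p = 0.47). In that fit 0 of the 3 members were called, against 15.8% of the 26672 IDs in either direction. An unadjusted p under 0.05 was reached by 0 of them with edgeR or with DESeq2. CBF2 and CBF3, with 2 and 3 reads over all libraries, had too few reads to be called. The count of 0 therefore bears on CBF1 alone and does not compare the family with other genes. Leaving out 1 library at a time moved the log2 ratio between -1.46, without ABA replicate 3, and -0.44, without ABA replicate 2. Without mock replicate 1 or 3, which stood apart on the second axis, it was -0.93 and -0.69.

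The second comparison asks the same of iSB09. CBF1 CPM after iSB09 was 0.683 times that in mock (0.346 to 1.32), a log2 ratio of -0.55, with p = 0.6 in the exact permutation test (0.8 adjusted). Without the filter the log2 fold change was -0.52 ± 0.67 (SE, 95% interval -1.97 to 0.93; edgeR adjusted p = 0.72). Again 0 of the 3 members were called, against 4.26% of IDs, with 0 at an unadjusted p under 0.05 in edgeR or DESeq2. Here too CBF2 and CBF3 had too few reads to be called. The value rested on iSB09 replicate 2, the library with 12 reads. Without it the log2 ratio was -1.77 (edgeR adjusted p = 0.31), and without iSB09 replicate 1, iSB09 replicate 3, mock replicate 1 or mock replicate 3 it was -0.23, -0.12, -0.57 and -0.33.

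The direct comparison sets 20 µM iSB09 against 10 µM ABA, so the doses differ. CBF1 CPM in iSB09 was 1.28 times that in ABA (0.587 to 2.87), a log2 ratio of 0.36, with p = 0.8 in the exact permutation test (0.8 adjusted). The fit without the filter gave 0.36 ± 0.74 (SE, 95% interval -1.25 to 1.98; edgeR adjusted p = 0.91). It called 0 of the 3 members, against 4.77% of IDs, and 0 had an unadjusted p under 0.05 in edgeR or DESeq2. CBF2 and CBF3 again had too few reads to be called. The sign of the CBF1 log2 ratio turned without iSB09 replicate 2, at -0.86, and without ABA replicate 2, at -0.11. It was 0.91, 0.68 and 0.79 without ABA replicate 3, iSB09 replicate 1 and iSB09 replicate 3. Across all 9 libraries at once, the exact permutation test of CBF1 CPM between the 3 treatments gave p = 0.53. None of these p-values shows that the treatments left CBF1 alike; the intervals give the range of differences that the reads allow.

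**Figure D3:**
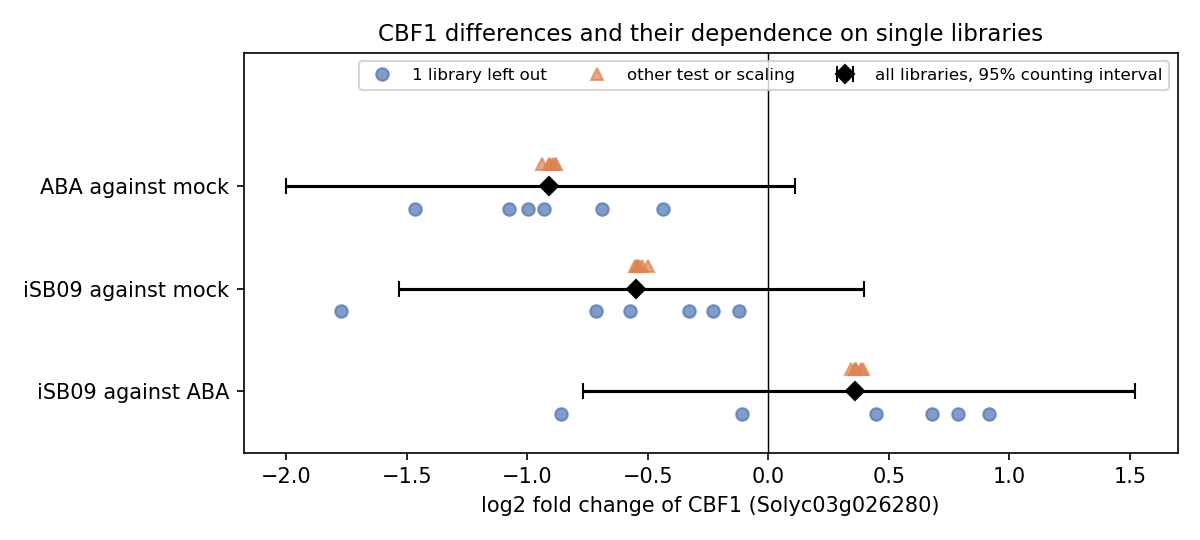
Log2 fold change of CBF1 (x axis) in each comparison (y axis); diamonds are the ratios over all libraries with 95% counting intervals, circles the ratios with 1 library left out, and triangles other tests or scalings. Each counting interval holds 0, and the circles reach from -1.77 to -0.12 for iSB09 against mock and lie on both sides of 0 for iSB09 against ABA.

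Whether the members moved by different amounts was tested on the log2 ratio of their counts within each library, with a prior count of 2 added to each. The ratio of CBF1 to CBF2 averaged 1.33 ± 0.65 in ABA, 1.51 ± 1.21 in iSB09 and 2.34 ± 0.35 in mock (SD, n = 3 each; exact permutation p = 0.34, 0.50 adjusted over the 3 pairs). For CBF1 to CBF3 the adjusted p was 0.79 and for CBF3 to CBF2 0.50, by the same exact test. With CBF2 and CBF3 at 0 or 1 read, the ratios with CBF1 mainly compare it with the prior count. The ratio of CBF3 to CBF2 mainly sets 1 prior count against another. Its test therefore cannot tell whether CBF2 and CBF3 moved by different amounts.

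CBF3 and CBF1 carry consecutive IDs. Of the 6 IDs within 3 places of this pair in ID order, 5 passed the filter, with 2709 to 11414 reads over all libraries, against 3 for CBF3 and 55 for CBF1. The ID just before CBF3, Solyc03g026260.3, averaged 41.5 ± 4.41 CPM in ABA, 44.9 ± 8.70 in iSB09 and 40.7 ± 0.267 in mock libraries (SD, n = 3 each). The ID just after CBF1, Solyc03g026290.3, averaged 15.8 ± 1.01 CPM in ABA, 12.2 ± 1.496 in iSB09 and 13.2 ± 1.32 in mock. Neither passed in any comparison (edgeR adjusted p between 0.118 and 0.912). Directly before CBF2 in ID order, Solyc03g124068.1 averaged 15.1 CPM in ABA, 14.4 in iSB09 and 10.98 in mock, and also passed in none. Of the other tested neighbours of CBF1 and CBF3, Solyc03g026310.4, named after its values were seen, was higher after ABA (62.8 CPM) and iSB09 (64.1 CPM) than in mock (46.6 CPM; edgeR adjusted p = 0.021 and 0.042). The order of IDs was not checked against a genome.

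The genes whose log2 CPM followed CBF1 most closely over the 9 libraries, among 19594 with at least 1 CPM, were Solyc02g090870.1 (Pearson r = 0.95), Solyc09g065780.3 (0.90) and Solyc04g053000.1 (0.90), and Solyc01g100720.3 ran most against it (-0.92). These are the ends of a long list of correlations with a gene that had under 10 reads in 7 of the libraries. No such genes are given for CBF2 and CBF3, with 2 and 3 reads.

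Beside the CBF genes stand lists of IDs for the rest of the pathway, written from general knowledge and not checked against an annotation. Each list name is therefore only as sure as the list. The lists were chosen with earlier results of these data known. The shares of all tested genes beside their counts are thus a scale and not a test. The list of other DREB-type AP2 factors, relatives that bind the same kind of element, held genes that changed. Of 4 tested, 2 rose and 1 fell after ABA, where 9.76% of all tested genes were called higher and 9.9% lower, and 2 rose and 1 fell after iSB09, where 2.63% were called higher and 2.48% lower. Solyc06g066540.1 had 8.71, 8.21 and 6.36 CPM in ABA replicates 1 to 3, 2.48, 1.775 and 1.88 in iSB09 replicates 1 to 3, and 0.728, 1.07 and 0.7785 in mock replicates 1 to 3. No libraries of different groups overlapped. Its log2 fold change was 3.17 ± 0.23 after ABA (SE; edgeR adjusted p = 3.7e-06) and 1.25 ± 0.24 after iSB09 (adjusted p = 0.013; 0.051 without mock replicate 1).

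Solyc05g052410.3 rose by 2.06 ± 0.23 on the log2 scale after ABA (SE; edgeR adjusted p = 9.6e-05) and by 1.31 ± 0.24 after iSB09 (adjusted p = 0.009). Solyc04g072900.1 averaged 31.3 ± 3.597 CPM in ABA, 44.5 ± 3.17 in iSB09 and 67.2 ± 5.51 in mock (SD, n = 3 each), with log2 fold changes of -1.10 and -0.59 against mock (adjusted p = 2.9e-05 and 0.0074). The median log2 fold change of this list was 1.51 after ABA and 0.55 after iSB09, against -0.004 and -0.0029 over all tested genes. Between iSB09 and ABA, 1 listed factor was higher in iSB09 and 1 lower, where 1.76% of tested genes were higher and 4.1% lower; the higher one, Solyc04g072900.1, did not pass without ABA replicate 2 or 3 (adjusted p = 0.095 and 0.077). Leaving out iSB09 replicate 2 gave 2 lower calls in iSB09 against ABA, and 3 rises in place of 2 after ABA.

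Protective genes are the known targets of CBF proteins, and several also answer to ABA. Of 7 listed cold and desiccation protection genes, 6 rose after ABA (5 without ABA replicate 1 or 3, iSB09 replicate 3, or mock replicate 1 or 2) and 4 after iSB09 (3 without mock replicate 1, 6 with DESeq2). Of all tested genes 9.76% were called higher after ABA and 2.63% after iSB09. None of the 7 fell with edgeR or DESeq2 in either comparison. The medians of the list were 1.75 and 0.95 on the log2 scale. Solyc02g084850.3 had 579.5, 428.6 and 541.6 CPM in ABA replicates, 162.6, 121.2 and 97.2 in iSB09 replicates, and 4.82, 5.97 and 5.92 in mock replicates. Its log2 fold change was 6.53 ± 0.23 after ABA and 4.51 ± 0.22 after iSB09 (SE; edgeR adjusted p = 3.7e-08 and 2.2e-06). In iSB09, Solyc02g084850.3 and Solyc06g019170.3 were lower than in ABA (log2 difference -2.02 and -0.90; edgeR adjusted p = 0.00015 and 0.0032), and DESeq2 called 3.

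Of all tested genes edgeR called 9.76% higher and 9.9% lower after ABA, and 2.63% and 2.48% after iSB09. In iSB09 against ABA the shares were 1.76% and 4.1%. Neither of 2 ICE1-type factors, the activators of CBF genes in Arabidopsis, passed edgeR's test in any comparison. At an unadjusted p under 0.05 were 2 of them after ABA, 0 after iSB09 and 1 between the compounds. DESeq2 called 1 after ABA and 0 otherwise: Solyc06g068870.3 had a log2 fold change of 0.24 after ABA (edgeR adjusted p = 0.064; 0.043 with DESeq2). Of 7 CAMTA factors 2 rose and 1 fell after ABA with edgeR, where 9.76% of all tested genes were higher and 9.9% lower, and DESeq2 called 2 higher and 2 lower. Solyc12g035520.3 fell (log2 fold change -0.48 ± 0.098, SE; edgeR adjusted p = 0.005), and Solyc01g105230.4 and Solyc01g060140.4 rose by 0.45 and 0.26 (adjusted p = 0.012 and 0.034). Both rises were lost without ABA replicate 2 (adjusted p = 0.062 and 0.14). That of Solyc01g060140.4 was also lost without ABA replicate 1 or 3, iSB09 replicate 3 or any mock replicate (adjusted p = 0.052 to 0.081), and with library totals (0.11), no filter (0.055) or a replicate block (0.065). After iSB09 0 CAMTA factors passed with edgeR or DESeq2, with 2 at an unadjusted edgeR p under 0.05. With 2.63% and 2.48% of all tested genes called, a count of 0 in so short a list is near the overall share. Between iSB09 and ABA edgeR called 1 CAMTA factor, Solyc12g035520.3, higher in iSB09, against 1.76% of all tested genes (log2 difference 0.43, adjusted p = 0.025). That call ended without any 1 of ABA replicates 1 to 3 or iSB09 replicates 1 and 3, and with library totals (adjusted p = 0.056). DESeq2 also called Solyc01g060140.4 lower in iSB09 (-0.23, adjusted p = 0.042). Of 20 tested clock and light regulators 6 rose after ABA and 3 after iSB09, against 9.76% and 2.63% of all tested genes, with medians of 0.15 and 0.09. The ABA count was 5 without any 1 of the ABA replicates, iSB09 replicate 1, or mock replicate 2 or 3, and with library totals. The iSB09 count was 2 without iSB09 replicate 3 or mock replicate 2, and 4 without mock replicate 1 or with DESeq2. In iSB09 4 were lower than in ABA, against 4.1% of tested genes (1 without ABA replicate 2, 2 without iSB09 replicate 1).

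Of 4 hormone-side regulators 1 rose and 2 fell after ABA, against 9.76% and 9.9% of all tested genes, and 0 passed after iSB09 or between the compounds with edgeR or DESeq2 (1 and 2 at an unadjusted edgeR p under 0.05). The clearest was Solyc09g090130.3, with 1.72 ± 0.145 CPM in ABA, 2.60 ± 0.0461 in iSB09 and 4.07 ± 0.678 in mock (SD, n = 3 each; log2 fold change after ABA -1.24 ± 0.18, edgeR adjusted p = 0.00064). The other fall, of Solyc08g076930.1 (log2 fold change -0.36, adjusted p = 0.049), ended without mock replicate 1 or 2, any ABA replicate or iSB09 replicate 1, and with limma voom (adjusted p = 0.055), median-of-ratios factors (0.053) or no filter (0.053). Among 3 tested root markers 2 fell after ABA and 1 after iSB09, against 9.9% and 2.48% of all tested genes. The third, Solyc01g094910.3, went the other way after ABA without passing (log2 fold change 0.43, edgeR adjusted p = 0.27). The iSB09 call, in Solyc06g051550.4, ended without any 1 of the ABA replicates, iSB09 replicates 2 and 3, or mock replicates 1 and 2. The replicate block also ended that call (edgeR adjusted p = 0.054). Of 6 shoot markers 0 passed in any comparison with edgeR or DESeq2, and 0 had an unadjusted p under 0.05. The shares of all tested genes given above apply to this short list too.

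**Figure D4:**
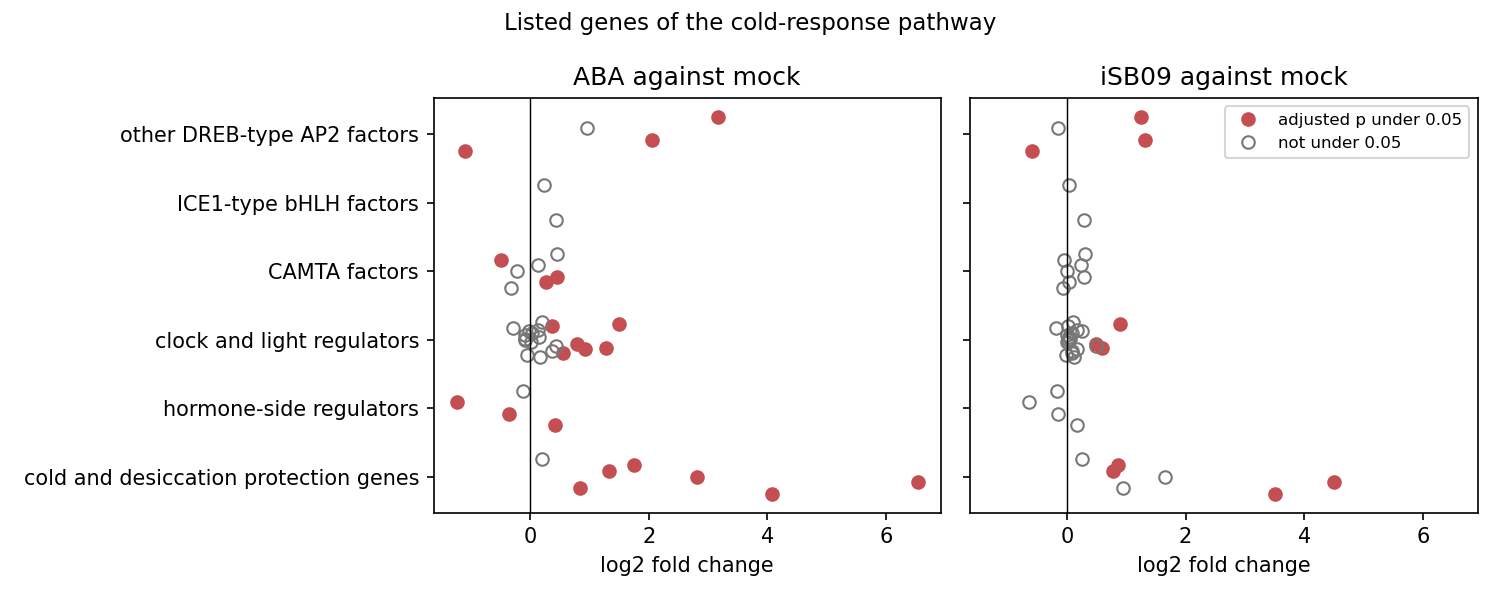
Log2 fold change (x axis) of each tested gene of 6 pathway lists (y axis) after ABA (left) and iSB09 (right), each against mock; filled points have an edgeR adjusted p under 0.05. The DREB-type and protection lists spread widest. The protection list reached 6.53 after ABA and 4.51 after iSB09, and the DREB-type list 3.17 and 1.31. The 3 CBF genes are not plotted because none passed the filter.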

How the data were processed

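The authors deposited 1 table of raw read counts per gene ID, used here as whole numbers with no rounding. FastQC, cutadapt, STAR and DESeq2 appear in the submitters' processing notes without versions; build, annotation, counter and strand setting are not given in the sources here, and whether reads were divided between the CBF genes was not tested. Columns were matched to samples by name; 3 columns whose name matches no label were not used, and the planned iCB comparisons and fits over 12 libraries could not be made.

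Counts were fitted with edgeR 4.0.16 in R 4.3.3 (filterByExpr, TMM, 1 term per treatment, glmQLFit and glmQLFTest, two-sided), Benjamini-Hochberg adjustment over all genes tested, and a threshold of 0.05. The code of the filtered edgeR fit, DESeq2 and limma voom was tested on simulated data, with changes placed in genes with more reads than the CBF genes. The edgeR fit without a filter was not part of that test. Since no CBF gene passed the filter, CBF1 was described by CPM with exact Poisson and binomial intervals (95%) and, as an addition made once this was known, tested with exact permutations over libraries and with edgeR without a filter. DESeq2 1.42.0 and limma voom 3.58.1 were alternatives. Libraries of a group differed by more than sampling noise in every pair (chi-square over its degrees of freedom, 7.46 to 28.5). The members and lists were chosen with earlier results of these data known. Named list genes are up to 3 per list with the smallest adjusted p for ABA against mock; genes like CBF1 are the 3 with the highest and the 1 with the lowest Pearson correlation. Sequences were not used here.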

Additional observations from a re-analysis of the deposited data

How the results depend on the processing

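The CBF1 differences kept their sign and size under DESeq2, median-of-ratios factors, library totals, no filter, the 2 groups alone and a replicate block, with log2 values between -0.94 and -0.88 for ABA against mock, -0.55 and -0.50 for iSB09 against mock, and 0.34 and 0.39 for iSB09 against ABA. Limma voom and a filter of 1 CPM in 3 libraries gave no value for any CBF gene, which they do not keep. For CBF2 and CBF3 no fold is given under any setting, because they were at or under the floor of 3 counts. Leaving out single libraries gave log2 ratios from -1.46 to -0.44, from -1.77 to -0.12 and from -0.86 to 0.91 in the 3 comparisons. The exact permutation p for the ratio of CBF3 to CBF2 ranged from 0.036, without mock replicate 2, to 0.43; it rests on 5 reads in all. Without single libraries the genes called after ABA numbered 1550 to 2226 higher and 1288 to 2361 lower, after iSB09 410 to 563 and 245 to 651, and in iSB09 against ABA 181 to 406 and 517 to 906. With only the 2 groups compared, 319 genes in place of 531 were lower after iSB09. The cause was not tested. Same-numbered replicates were not paired (correlation of deviations -0.19 to 0.34, and 3 of 9 libraries correlated best with their own number); with a replicate block the CBF1 log2 fold changes were -0.88, -0.54 and 0.34 (adjusted p = 0.55, 0.76 and 0.94). At this depth CBF2 and CBF3 had upper bounds only, and the intervals of CBF1 spanned several-fold. How far depth or the spread between libraries set the width for CBF1 was not tested.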
